A study of Mus musculus with 2 samples.

Results

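The 10 circadian clock genes Per1, Per2, Per3, Cry1, Ciart, Nr1d1, Nr1d2, Dbp, Arntl and Clock were compared between sham and injured mouse thalamus, to see whether the pools of nuclei differed in these time-of-day genes. The rule was a list of symbols and used no measured value, but the members were chosen with earlier results of these data known. All 10 genes had a row in both count tables, of 32285 gene rows in all. Single-nucleus RNA sequencing (snRNA-seq) was carried out on thalamus of C57BL/6J female mice, operated at 3 months of age and collected at day 21. One group received cortical ablation injury (CAI), in which cortex is removed surgically, and the other a sham operation. Each group was 1 library made from nuclei of 4 mice, mixed in equal numbers, so neither group had a replicate and no difference could be tested against the spread between mice. No transgene, Cre driver or drug was part of either group beyond anaesthesia and analgesia at surgery. The mice were kept under a standard light/dark cycle. The time of day at which the thalamus was taken is not given in the sources used here, so injury, collection time, the choice of mice and the tissue dissected cannot be told apart.

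In nearly every mammalian cell the clock is a feedback loop of transcription. CLOCK and its partner ARNTL (also called BMAL1) bind E-boxes and switch on the Per, Cry, Nr1d, Dbp and Ciart genes, and the PER and CRY proteins, with CIART, return to the nucleus and inhibit CLOCK and ARNTL. NR1D1 and NR1D2 (the REV-ERB receptors) repress Arntl in competition with the activating ROR receptors, so transcripts of Arntl peak at about the opposite time of day from those of Dbp, Ciart, Nr1d1 and the Per genes, while Clock transcripts vary little in most tissues. DBP, with its relatives TEF and HLF, activates genes through D-boxes, where NFIL3 represses.

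Upstream sequence of 3 members is shown because the results below turn on these genes and each stretch holds a clock motif. The sequences were taken from RefSeq (GRCm38.p6) and run 5′ to 3′ on the strand of the gene. Capitals mark the E-box CACGTG, which is its own reverse complement, or the D-box TTATGTAA. The Ciart stretch (chr3:95882252-95882478, minus strand) held 3 E-boxes, which began 116, 58 and 44 bases before the RefSeq start. The Per3 stretch (chr4:151044666-151044915, minus strand) held 2 D-boxes, 205 and 158 bases before the start. The Per1 stretch (chr11:69098771-69098800, plus strand) is cut to 30 bases around the E-box that began 166 bases before one RefSeq start, and lies inside the longest annotated Per1 gene model.
Ciart: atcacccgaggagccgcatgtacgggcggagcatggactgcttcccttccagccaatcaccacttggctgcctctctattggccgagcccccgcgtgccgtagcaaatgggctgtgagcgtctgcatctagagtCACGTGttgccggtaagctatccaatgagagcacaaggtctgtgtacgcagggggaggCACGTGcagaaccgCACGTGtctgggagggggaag
Per3: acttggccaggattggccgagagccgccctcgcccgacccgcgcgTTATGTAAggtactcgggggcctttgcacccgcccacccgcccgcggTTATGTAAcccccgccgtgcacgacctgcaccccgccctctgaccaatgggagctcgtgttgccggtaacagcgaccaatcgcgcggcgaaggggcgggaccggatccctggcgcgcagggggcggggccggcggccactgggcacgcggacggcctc
Per1: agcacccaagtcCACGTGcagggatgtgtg

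Of the 10 genes, 9 had an entry in the promoter table used here, with 13 start sites between them, and the 250 bases upstream of each start were searched on both strands. The E-box stood in 3 of these 13 windows (Ciart, Cry1 and Per1), against 6.02% of 32851 windows over all genes. Windows with 3 or more E-boxes, as at Ciart, made up 0.0609% of all windows. The D-box stood in 0.819% of all windows and 2 or more of them in 0.0183%. The core of the element bound by REV-ERB and ROR receptors, TAGGTCA, stood in 2.23% of all windows and in 0 of the 13 member windows. A match describes the letters only, and the search says nothing about binding here.

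The sham library held 16390 barcodes and 137850696 unique molecular identifiers (UMIs, each 1 captured RNA molecule), and the injury library 21828 barcodes and 180106314 UMIs. After filtering, 16373 and 21777 nuclei were kept, with medians of 7190 and 6810 UMIs, and 101 barcode sequences occurred in both libraries. Cell classes were rebuilt from the counts by clustering and marker genes, so each name stands for nuclei like that class. Glutamatergic neurons numbered 11804 in sham and 12573 in injury, GABAergic neurons 1945 and 3155, oligodendrocytes 991 and 2304, and astrocytes 209 and 512. Their median depths were 7863 and 7959, 6342 and 6330, 1539 and 1651.5, and 1892 and 2549.5 UMIs in the same order. The defining markers were present where they should be, for example Slc17a6 at 165 and 149.8 counts per 1000000 (CPM) in glutamatergic neurons, Gad1 at 188 and 182 CPM in GABAergic neurons, Mbp at 4993 and 5420.2 CPM in oligodendrocytes and Aqp4 at 205 and 378 CPM in astrocytes. Of the other astrocyte markers, Slc1a2 (3389 and 3791 CPM) and Aldoc (159 and 184) were also higher in injury astrocytes. Slc1a3 (1446 and 1250 CPM), Gja1 (320 and 220), Ntsr2 (558 and 444) and Agt (117 and 108) were lower there. Transcripts of other classes were present at low levels, and the neuronal gene Syt1 stood at 184 and 177 CPM in oligodendrocytes and 141 and 119 CPM in astrocytes, and Mbp at 27.8 and 45.9 CPM in glutamatergic neurons. The microglial marker Tmem119 was at 0 in oligodendrocytes and astrocytes of both libraries.

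Values below are UMIs of a gene summed over a class, CPM of that class, and the log2 ratio of injury over sham, each with a 95% exact interval that covers counting error only, not differences between mice. In sums of this kind a change in the number of transcribing nuclei and a change per nucleus cannot be told apart. Levels are compared between libraries or classes, never between genes, since gene length was not taken into account. As a background, a log2 ratio of 0.5 or more in size was reached in glutamatergic neurons by 8.60% of the 19470 genes with at least 50 UMIs, in GABAergic neurons by 9.48%, in oligodendrocytes by 15.1% and in astrocytes by 22.9%. Over those genes the median ratio lay close to 0 in each class.

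Across all nuclei of each library, 8 clock genes were lower in injury with intervals below 0, led by Ciart at 10.2 and 7.19 CPM, a log2 ratio of -0.50 (-0.61 to -0.39). Arntl was higher by 0.07 (0.03 to 0.10) and the interval of Clock included 0, at 0.02 (-0.01 to 0.04). In these sums 24.0% of all 20724 genes tested had an interval below 0 and 32.1% an interval above 0. They mix the cell classes, whose shares differed between the libraries, and the classes are therefore taken one by one.

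**Figure D1:**
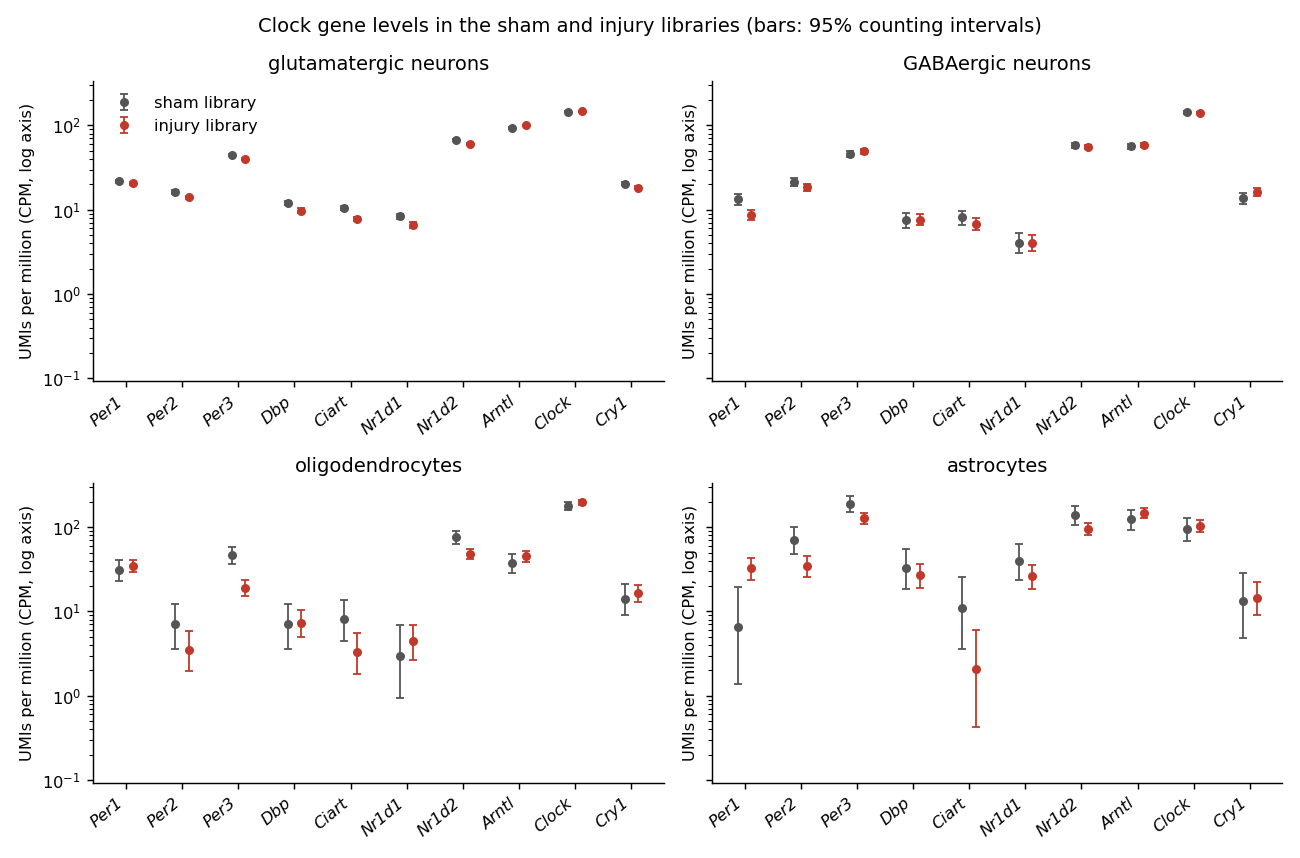
Level of each clock gene in the sham (grey) and injury (red) library in 4 cell classes, in CPM of the class on a log axis, with 95% counting intervals. In glutamatergic neurons the intervals are narrow and most red points sit just below the grey ones, while in astrocytes they are wide, and Per1 rests on 3 sham and 47 injury UMIs.

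In glutamatergic neurons the Per genes, Cry1, Ciart, Dbp, Nr1d1 and Nr1d2 were lower in the injury library and Arntl was slightly higher, all by small amounts. The 7 genes taken as clock output (Per1, Per2, Per3, Dbp, Ciart, Nr1d1 and Nr1d2) were lower in 7 of 7, with a median log2 ratio of -0.22. Of all 19470 genes tested in this class, 9233 were lower by any amount. None of the 10 members reached 0.5 in size, where 3.03% of all genes tested were lower and 5.57% higher by as much. Intervals lay below 0 for 8 of the 10, where 23.5% of all genes tested in this class had such an interval, and above 0 for 1, where 25.4% did. Counting error is small at this depth, so intervals that leave out 0 were common for any gene.

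Among the inhibitors of the loop, Per1 (chromosome 11, 69095217 to 69109960, plus strand), an early gene that also answers hormones and neuronal activity, gave 2328 UMIs in the sham library and 2404 in the injury library, 21.9 and 20.5 CPM. Its log2 ratio was -0.09 (-0.18 to -0.01), the smallest of the 7. Per2 (chromosome 1, 91415982 to 91459324, minus strand), a core inhibitor, had 1728 and 1640 UMIs, 16.3 and 14.0 CPM and a ratio of -0.22 (-0.31 to -0.12). Per3 (chromosome 4, 151003652 to 151044665, minus strand), a close relative, had 4693 and 4652 UMIs, 44.1 and 39.7 CPM and a ratio of -0.15 (-0.21 to -0.09). The whole Per3 gene lies within Camta1 on the same strand, so its counts are uncertain where reads could belong to either gene. Cry1 (chromosome 10, 85131700 to 85185064, minus strand), the partner of the PER proteins, had 2176 and 2139 UMIs, 20.5 and 18.3 CPM and a ratio of -0.16 (-0.25 to -0.08).

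Ciart (chromosome 3, 95878503 to 95882251, minus strand), a repressor of CLOCK and ARNTL, was the member with the lowest ratio in this class. It had 1124 UMIs in sham and 910 in injury, 10.6 and 7.77 CPM, a ratio of -0.44 (-0.57 to -0.32), which is 1.36-fold lower in injury. An antisense gene, C920021L13Rik, covers it, and since the use of strand in counting is not given in the sources used here, reads from the pair cannot be told apart. The same holds for the 3′ ends of Nr1d1, which overlaps Thra, and Dbp, which overlaps Sphk2, and for a stretch within Arntl that Gm45355 covers on the opposite strand.

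The nuclear receptors that repress Arntl were also lower. Nr1d1 (chromosome 11, 98767932 to 98775333, minus strand) had 891 and 772 UMIs, 8.38 and 6.59 CPM, a ratio of -0.35 (-0.49 to -0.21). Nr1d2 (chromosome 14, 18204054 to 18239127, minus strand) had 7167 and 7017 UMIs, 67.4 and 59.9 CPM, a ratio of -0.17 (-0.22 to -0.12). Dbp (chromosome 7, 45705088 to 45710203, plus strand), the D-box activator and a common marker of clock phase, had 1270 and 1145 UMIs, 11.9 and 9.77 CPM, a ratio of -0.29 (-0.41 to -0.17).

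Of the activators, Arntl went the other way and the interval of Clock included 0. Arntl (chromosome 7, 113207465 to 113314126, plus strand) gave 9860 UMIs in the sham library and 11769 in the injury library, 92.7 and 100.5 CPM, a ratio of 0.12 (0.08 to 0.15). Clock (chromosome 5, 76209868 to 76304792, minus strand) had 15438 and 17273 UMIs, 145 and 147 CPM, a ratio of 0.02 (-0.01 to 0.05).

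In GABAergic neurons the clock genes had small ratios apart from Per1, which was lower in injury. The median over the 7 output genes was -0.06, and 5 of 7 were lower, where 7475 of the 15328 genes tested were lower by any amount. An interval that included 0 was found for 9 of the 10 members. Per1 was counted at 186 UMIs over the 1945 sham nuclei and at 199 over the 3155 injury nuclei, 13.3 and 8.69 CPM, a ratio of -0.62 (-0.91 to -0.32). It was the 1 member past 0.5, and 3.76% of the 15328 genes tested were lower and 5.72% higher by as much, while 15.0% had an interval below 0 and 15.2% above 0. Over the alternatives its ratio ran from -0.93 with free RNA subtracted to -0.51 with nuclei thinned to 3000 UMIs each.

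The other members of the GABAergic class lay between -0.27 and 0.25. Ciart had 113 and 154 UMIs and a ratio of -0.27 (-0.63 to 0.10), Dbp, on 105 and 175 UMIs, one of 0.02 (-0.33 to 0.39), and Nr1d1, on 57 and 93, one of -0.01 (-0.50 to 0.49). These intervals are wide enough to hold the glutamatergic ratios of the same genes. Per3 stood at 46.1 and 49.1 CPM, a ratio of 0.09 (-0.05 to 0.23), and Arntl at 56.2 and 58.0 CPM, a ratio of 0.04 (-0.08 to 0.17). The Per3 interval and the glutamatergic one (-0.21 to -0.09) did not overlap, whereas those of Arntl did, and the difference between classes was not tested. The GABAergic Per3 ratio rested on cluster 2, the larger of the 2 GABAergic clusters, at 0.18, without which it was -0.22, and it was -0.02 with nuclei thinned to 3000 UMIs each. Cry1 was at 13.6 and 16.2 CPM, a ratio of 0.25 (-0.00 to 0.51).

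**Figure D2:**
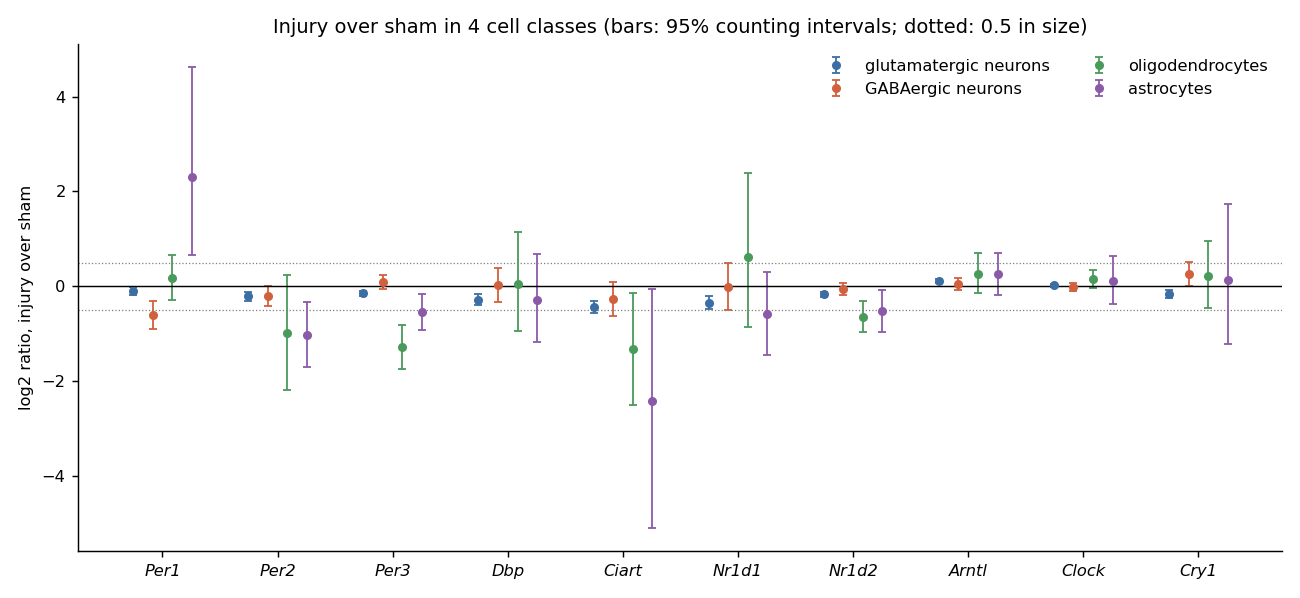
Log2 ratio of injury over sham for each clock gene in glutamatergic neurons, GABAergic neurons, oligodendrocytes and astrocytes, with 95% counting intervals, a solid line at 0 and dotted lines at 0.5 in size. The Ciart points lie below 0 in all 4 classes and the Arntl points above 0 in all 4, but some intervals of both include 0. Per1 runs from -0.62 in GABAergic neurons to 2.30 in astrocytes.

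In oligodendrocytes, which make myelin, Per3, Ciart and Nr1d2 were lower in injury, and the intervals of the other 7 members included 0. Per3 was counted at 79 UMIs over 991 sham nuclei and at 81 over 2304 injury nuclei, 46.2 and 19.0 CPM, a ratio of -1.28 (-1.75 to -0.82), or 2.43-fold lower. Nr1d2 had 129 and 206 UMIs, 75.5 and 48.3 CPM, a ratio of -0.64 (-0.97 to -0.31), which turned to 0.48 in the 66 sham and 221 injury nuclei that remained when each nucleus was thinned to 3000 UMIs and shallower ones were left out. Ciart rested on 14 UMIs in each library, 8.19 and 3.28 CPM, a ratio of -1.32 (-2.50 to -0.14). Intervals lay below 0 for these 3 of 10 members, 2 of them with at least 50 UMIs, and 10.9% of the 9466 genes tested had such an interval. None lay above 0, where 9.89% of all genes did.

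Of the remaining oligodendrocyte members, some had few counts. Per2 rested on 12 and 15 UMIs, with a ratio of -0.996 (-2.19 to 0.23), and Nr1d1 on 5 and 19, with one of 0.61 (-0.86 to 2.38), so neither sign could be read at this depth. Per1 had 53 and 149 UMIs, 31.0 and 34.9 CPM, a ratio of 0.17 (-0.29 to 0.65). Arntl, on 64 and 192 UMIs, had a ratio of 0.27 (-0.15 to 0.70), and Clock had 307 and 845, 179.6 and 198 CPM, a ratio of 0.14 (-0.05 to 0.34). In all, 5 of 10 members were past 0.5, 4 lower and 1 higher, against 8.13% of all genes tested lower and 6.96% higher. Of the 6 members with at least 50 UMIs, 2 were past 0.5, namely Per3 and Nr1d2.

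In astrocytes, Per2, Per3 and Nr1d2 were lower in injury, and Per1 was higher. With nuclei thinned to 3000 UMIs, which left 35 sham and 195 injury astrocytes, the ratio of Per2 turned from -1.03 to 0.046 and the median over the output genes from -0.55 to 0.046. Per2 was counted at 32 UMIs over 209 sham nuclei and at 50 over 512 injury nuclei, 70.5 and 34.5 CPM, a ratio of -1.03 (-1.70 to -0.34), or 2.04-fold lower. Per3 had 85 and 185 UMIs, 187 and 128 CPM, a ratio of -0.55 (-0.93 to -0.16), and Nr1d2 had 63 and 139, 139 and 96.0 CPM, a ratio of -0.53 (-0.97 to -0.08). Nr1d1, with 18 and 38 UMIs, had a ratio of -0.60 (-1.44 to 0.30), and 0.61 when thinned. Ciart had 5 UMIs in sham and 3 in injury, too few to read beyond its interval of -5.10 to -0.05.

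Astrocyte Per1 came from 3 UMIs, each in its own sham nucleus, and from 47 UMIs spread over 46 injury nuclei with at most 2 in any one. Its level was 6.61 CPM (1.36 to 19.3) in sham and 32.5 CPM (23.9 to 43.2) in injury, a ratio of 2.30 (0.66 to 4.62). The sham value rests on 3 molecules, and the median depth of astrocytes was 1892 UMIs in sham and 2549.5 in injury. Arntl had 56 and 213 UMIs, 123 and 147 CPM, a ratio of 0.25 (-0.18 to 0.70), Clock a ratio of 0.12 (-0.38 to 0.64), Cry1 of 0.13 (-1.22 to 1.73) and Dbp of -0.30 (-1.19 to 0.67). In all, 6 of 10 members were past 0.5, 5 lower and 1 higher, against 9.35% of all genes tested lower and 13.5% higher. With scaling by TMM (trimmed mean of M values) in place of class totals, Per3 (-0.48) and Nr1d2 (-0.46) dropped under 0.5, which left 4 of 10. Intervals lay below 0 for 4, of which 3 had at least 50 UMIs, where 7.34% of the 5938 genes tested did, and above 0 for 1, where 8.74% did. Of the 8 members with at least 50 UMIs, 5 were past 0.5. Per1, 1 of these 5, reached 50 UMIs only through its 47 in injury, and it was also the 1 member with an interval above 0.

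Oligodendrocyte precursors, with 142 and 217 nuclei, gave values in the same direction for Per3 (-0.97, -1.68 to -0.26) and Nr1d2 (-0.88, -1.57 to -0.19). Cry1 was also lower there, at -1.87 (-3.74 to -0.22) on 11 and 5 UMIs, where its intervals in oligodendrocytes and astrocytes included 0, and Dbp had 7 UMIs in sham and 0 in injury. Their Per1 counts were 1 UMI in sham and 10 in injury, a ratio of 2.59 with an interval of -0.22 to 8.03.

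Set side by side, Ciart, Per2 and Nr1d2 had ratios under 0 in each of the 4 classes, and Arntl had a ratio above 0 in each, but not all of these signs could be read. The Arntl interval included 0 in the 3 classes other than glutamatergic neurons. In GABAergic neurons the intervals of Ciart (-0.63 to 0.10), Per2 (-0.43 to 0.01) and Nr1d2 (-0.19 to 0.07) also included 0. The counts of oligodendrocyte Per2 and astrocyte Ciart were too low. Signs turned for oligodendrocyte Nr1d2 (0.48) and astrocyte Per2 (0.046) when thinned and for GABAergic Per2 (0.11) without cluster 2. The GABAergic ratio of Arntl turned to -0.08 when thinned and to -0.01 with the mean CPM of single nuclei. Without cluster 10 it was -0.002. Of the 5332 genes with at least 50 UMIs in every class, 18.0% were lower in all 4 and 16.8% higher in all 4, and 5 of the 10 members were among the 5332. Past 0.5 in all 4 classes were 0.169% on the lower side and 0.0563% on the higher side, and no member. Among the 5 members, Nr1d2 had a ratio under 0 in all 4 classes and Arntl a ratio above 0 in all 4, with the limits given above. Ranked by the smallest of their 4 ratios, Nr1d2 was 542 of the 961 genes lower throughout and Arntl 575 of the 898 higher throughout, that is, near the middle of each ranking. Among the genes that led these rankings were Ndufaf4, Snhg20, Srsf2 and Rpl17 on the lower side and Leng9, Cmss1, Tns1, Gm42418 and Kif6 on the higher side.

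Levels of the members also differed between the cell classes, as described here for the sham library. Per3 stood at 187 CPM in astrocytes (149.6 to 232) and between 44.1 and 46.2 CPM in the other 3 classes, whose intervals overlapped. Nr1d2 was at 139 CPM in astrocytes, 75.5 in oligodendrocytes, 67.4 in glutamatergic and 58.3 in GABAergic neurons, and the intervals of oligodendrocytes and glutamatergic neurons overlapped. Per2 ran from 70.5 CPM in astrocytes to 21.5 in GABAergic neurons, 16.3 in glutamatergic neurons and 7.02 in oligodendrocytes, with no overlap between neighbours.

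Arntl was at 123 CPM in astrocytes (93.2 to 160.3), 92.7 in glutamatergic neurons (90.9 to 94.6), 56.2 in GABAergic neurons (52.4 to 60.3) and 37.4 in oligodendrocytes (28.8 to 47.8), and only the astrocyte and glutamatergic intervals overlapped. Clock had the reverse order in the glia, with 179.6 CPM in oligodendrocytes and 94.8 in astrocytes, and 145 and 143 CPM in the glutamatergic and GABAergic neurons, which overlapped. Free RNA was estimated at 7.59% of astrocyte UMIs and 24.6% of GABAergic UMIs in sham, and its part in these orders was not tested.

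To determine whether the class ratios followed from the mix of neuron types, the members were taken in 18 neuron clusters that had at least 50 nuclei in each library, 16 glutamatergic and 2 GABAergic. With at least 20 UMIs required, there were 173 values, of which 31 were past 0.5, 36 had an interval below 0 and 13 an interval above 0. Of all genes with at least 20 UMIs in a cluster, between 12.5% and 43.6% were past 0.5, with a median over clusters of 16%, so the members' count past 0.5 was near this background. Intervals below 0 were found for 5.44% to 17.6% of these genes, and above 0 for 4.89% to 14.2%. Clusters of one library share their mice and their preparation and are not replicates.

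Ciart was lower in 16 of 16 clusters, from -0.97 in cluster 11 (led by Ppp1r3a and Adamts9) to -0.00 in cluster 10 (GABAergic, led by Six3), and 4 of the intervals lay below 0. In cluster 11 it had 95 UMIs in sham and 54 in injury. Nr1d2 was lower in 16 of 18 clusters with 7 intervals below 0, and Per3 in 15 of 18 with 7 below 0 and 1 above. Dbp was lower in 14 of 17, Cry1 in 13 of 17, Nr1d1 in 12 of 15, Per2 in 12 of 18 and Per1 in 11 of 18. The share of all genes lower or higher in as many clusters was not counted. Ciart is under 5 kb long, and the glutamatergic median over all genes of that length was -0.12.

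Arntl was higher in 14 of 18 clusters, with 5 intervals above 0 and 0 below, at a median of 0.10. The gene is over 100 kb long, and the glutamatergic median over all genes of that length was 0.07. Its sham level ran from 23.5 CPM in cluster 7, led by Chat and Chrna3, to 136 CPM in cluster 4, led by Adgrf5. In cluster 4 it had 1493 and 2054 UMIs, 136 and 157 CPM, a ratio of 0.20 (0.11 to 0.30), and in cluster 1, led by C6 and Snx31, 2460 and 2983 UMIs, a ratio of 0.25 (0.17 to 0.33). Clock was higher in 10 clusters and lower in 8, with sham levels between 127 and 168 CPM.

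Single clusters did not show one common pattern. In cluster 0, led by Sim1 and Lmx1a, Nr1d1 was at 6.45 and 2.98 CPM, a ratio of -1.11 (-1.64 to -0.61), while Dbp was at 5.27 and 7.41 CPM, a ratio of 0.49 (0.07 to 0.92), and Cry1 was higher by 0.35 (0.08 to 0.62). In cluster 9, led by Ptprq, Dbp had 56 and 24 UMIs, a ratio of -1.17 (-1.92 to -0.46), with Per1 at 0.22 (-0.31 to 0.75). In cluster 6, led by Glis3, Per2 had 137 and 66 UMIs, a ratio of -1.005 (-1.45 to -0.57), while Ciart was at -0.02 and Nr1d1 at -0.01. Both GABAergic clusters had lower Per1, by -0.54 (-0.88 to -0.19) in cluster 2, led by Gata3, and by -0.84 (-1.44 to -0.24) in cluster 10.

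**Figure D3:**
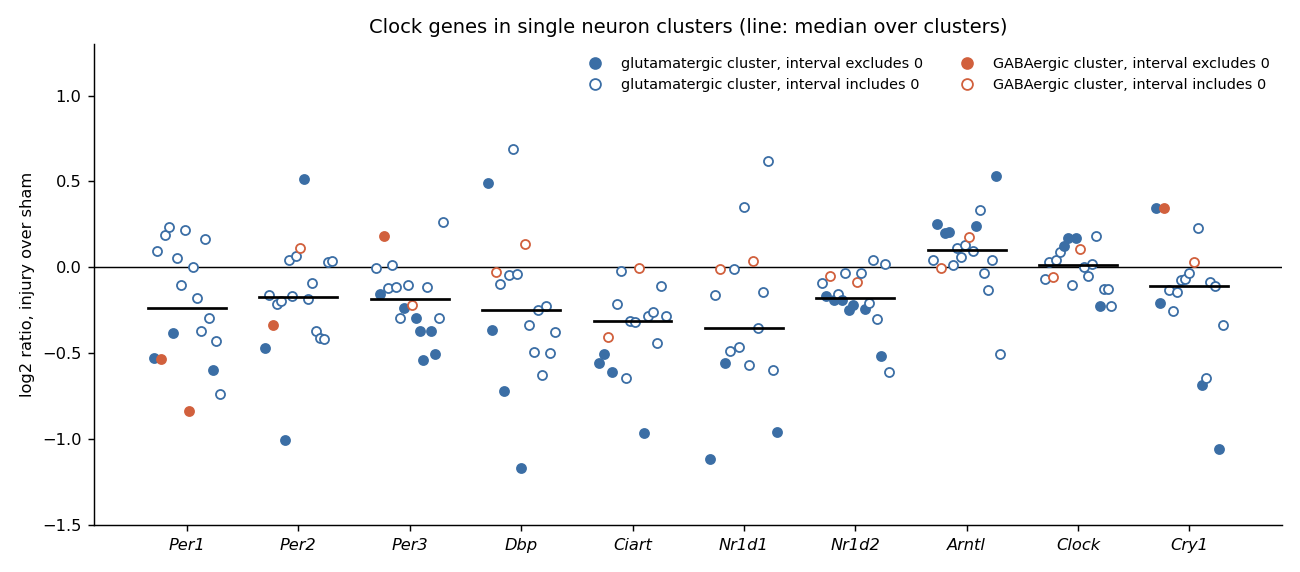
Log2 ratio of injury over sham of each clock gene in single neuron clusters with at least 50 nuclei in each library, for genes with at least 20 UMIs; blue is glutamatergic and orange GABAergic, filled points have a 95% counting interval that leaves out 0, and black lines are medians over clusters. All 16 Ciart points lie under 0, 14 of 18 Arntl points lie above 0, and the points of each gene spread widely around the median.

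The other genes of the clock pathway, a list of 20, did not follow the output genes as a group. In glutamatergic neurons 2 of 20 were past 0.5, 6 had an interval above 0 and 7 below 0, and the median was -0.02. Over all genes tested in this class the shares were 8.60%, 25.4% and 23.5%, so the first and second of these counts were near the background. Bhlhe40, a repressor that competes at E-boxes and also answers activity, was at 15.4 and 10.7 CPM, a ratio of -0.53 (-0.64 to -0.42). Usp2, a rhythmic deubiquitinase, had a ratio of -0.26 (-0.33 to -0.20), Wee1, a cell cycle kinase under clock control, -0.25 (-0.40 to -0.10), and Cry2, a close relative of Cry1, 0.15 (0.10 to 0.19). The activating receptor Rora was at 0.10 (0.10 to 0.11), and Tef and Nfil3 had intervals that included 0.

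In GABAergic neurons 3 of the 20 were past 0.5, against 9.48% of all genes tested, among them Bhlhe40 at -0.50 (-0.96 to -0.04) and Hlf at 0.57 (0.35 to 0.80). In oligodendrocytes 1 of the 13 with at least 50 UMIs was past 0.5, where 15.1% of all genes were, namely Rorb at 0.78 (0.25 to 1.34), and the D-box activator Tef was at 126 and 94.3 CPM, a ratio of -0.42 (-0.66 to -0.18). In astrocytes 3 of 13 were, against 22.9% of all genes, and they included Npas2, which can stand in for CLOCK, at 0.58 (0.30 to 0.88) and Hlf at -0.79 (-1.25 to -0.33).

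Per1, Per2 and some other members are also known targets of glucocorticoids, of neuronal activity and of body temperature, so genes of these responses were measured in the same sums. These lists, like that of the other clock genes, were chosen with earlier results of these data known. The shares of all genes beside them are therefore a description and not independent support. In oligodendrocytes 7 of 12 glucocorticoid-responsive genes with at least 50 UMIs were past 0.5, all higher in injury, with a median of 0.69, against the same 6.96% of all genes. Fkbp5, a chaperone of the glucocorticoid receptor, had 60 and 478 UMIs, 35.1 and 112 CPM, a ratio of 1.68 (1.29 to 2.09). Plin4, a lipid droplet protein, was at 2.38 (1.69 to 3.16), the transcription factor Zbtb16 at 1.23 (1.07 to 1.39) and the kinase Sgk1 at 0.85 (0.63 to 1.07). Tsc22d3, which encodes GILZ, was at -0.13 (-0.32 to 0.06), and Per1 in the same nuclei at 0.17 (-0.29 to 0.65).

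In astrocytes Fkbp5 had 4 UMIs in sham and 118 in injury, a ratio of 3.21 (1.81 to 5.11), and Zbtb16 was at 0.43 (0.09 to 0.79). Ddit4 was lower, at -1.02 (-1.76 to -0.25), as was Tsc22d3, at -0.47 (-0.92 to -0.003). Enough UMIs for the count were found in 7 genes. Of these 7, 1 was past 0.5 in each direction, near the 13.5% of all genes higher and 9.35% lower by as much. The higher one, Fkbp5, had enough UMIs only through its 118 in injury. Its place in the count therefore rests on the library where it was high. There were 2 intervals above 0, 1 of them that of Fkbp5, and 2 below, where 8.74% and 7.34% of all genes had such intervals. In glutamatergic neurons 1 of 14 was past 0.5, against 8.60% of all genes, namely Zbtb16 at 0.88 (0.80 to 0.95), with Fkbp5 at 0.26 (0.19 to 0.33), and in GABAergic neurons 0 of 11, where 9.48% of all genes were. Their part in the Per1 values was not tested.

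**Figure D4:**
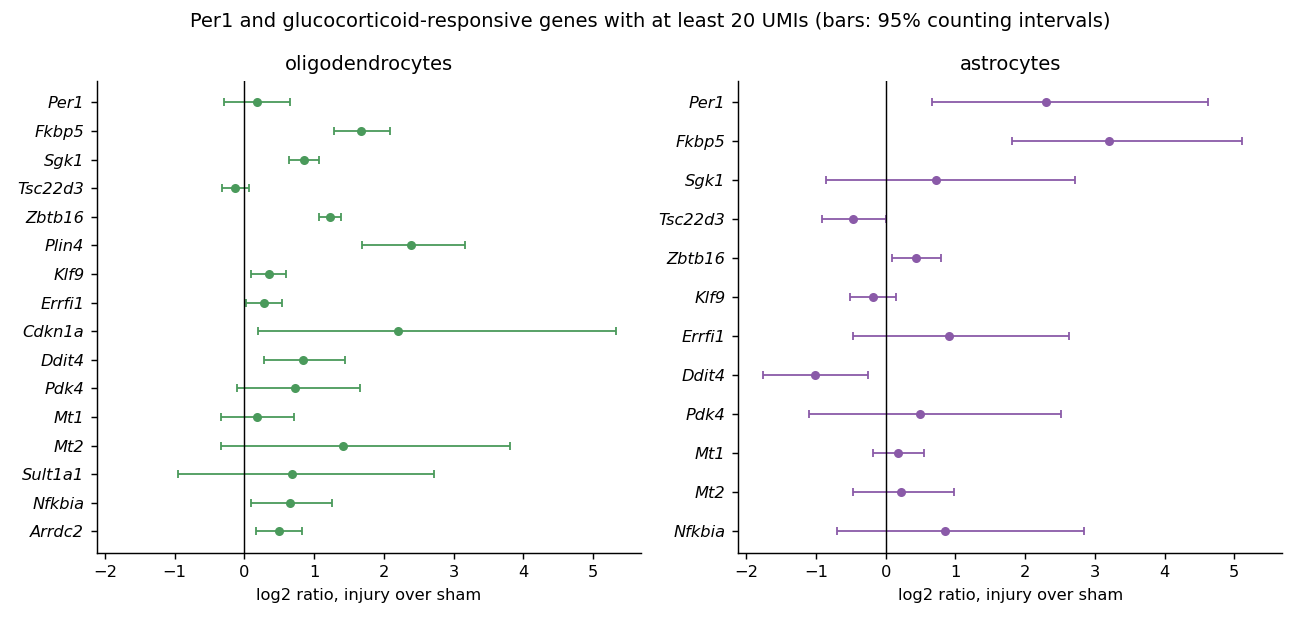
Log2 ratio of injury over sham of Per1 and of glucocorticoid-responsive genes with at least 20 UMIs in oligodendrocytes and astrocytes, with 95% counting intervals. In oligodendrocytes most listed genes lie above 0 while the Per1 interval spans 0, and in astrocytes Fkbp5 and Per1 lie above 0 with wide intervals and Ddit4 lies below.

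Of the activity-dependent genes, most but not all had lower values in injury neurons. In glutamatergic neurons 6 of the 10 with at least 50 UMIs were lower by 0.5 or more and 1 higher, with a median of -0.66, against the same 3.03% of all genes. Fos, the best known of them, stood at 576 and 132 UMIs, with a log2 ratio of -2.27 (-2.55 to -1.99), and Npas4, a neuron-specific one, was at -0.87 (-1.01 to -0.72). The intervals of Arc (0.23, -0.24 to 0.70), Egr2 (0.63, on 20 and 34 UMIs) and Nr4a1 (-0.08, -0.15 to 0.003) included 0. In GABAergic neurons 6 of 8 were lower by 0.5 or more, against 3.76% of all genes tested, with a median of -0.70, and 3 of the 8 intervals included 0. Per1 was at -0.09 and -0.62 in the same nuclei, and the part of activity in it was not tested.

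Of the temperature and heat shock genes, 7 of 7 with at least 50 UMIs in glutamatergic neurons had an interval below 0, where 23.5% of all genes tested did, with a median of -0.18, and none was past 0.5. The cold-inducible RNA-binding genes Rbm3 and Cirbp, whose transcripts follow body temperature over the day, were at -0.49 (-0.56 to -0.43) and -0.18 (-0.26 to -0.10) in glutamatergic neurons, and at -0.55 (-0.72 to -0.38) and -0.18 (-0.35 to -0.01) in GABAergic neurons. In GABAergic neurons 3 of 7 temperature and heat shock genes were past 0.5, all lower, where 3.76% of all genes tested were, with a median of -0.37. In oligodendrocytes Rbm3 was at -0.61 (-0.98 to -0.23) and Cirbp at -0.37 (-0.78 to 0.04), and in astrocytes they were at 0.06 (-0.72 to 0.91) and -0.06 (-0.83 to 0.77). Past 0.5 in oligodendrocytes was 1 of 7, Rbm3, where 8.13% of all genes were lower by as much, and Hspa5 was at 0.42 (-0.04 to 0.91). Past 0.5 in astrocytes were 2 of 6, both lower, where 9.35% of all genes were. They were Hsph1 at -0.85 (-1.64 to -0.02) and Hsp90aa1 at -0.62 (-1.33 to 0.13).

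Ratios also moved with the genomic length of a gene, across all genes and in the same sense in each class. In glutamatergic neurons the median was -0.12 over the 2897 genes under 5 kb, where Ciart belongs, and 0.07 over the 2718 genes over 100 kb, where Arntl belongs. In GABAergic neurons the medians for these lengths were -0.10 and 0.03, in oligodendrocytes -0.34 and 0.12, and in astrocytes -0.40 and 0.09. Dbp and Nr1d1, between 5 and 10 kb, share a length with genes whose median was -0.06 in glutamatergic neurons and -0.21 in oligodendrocytes.

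Taken relative to genes of like length, the glutamatergic ratio of Arntl went from 0.12 to 0.05 and that of Clock from 0.02 to -0.03, that of Cry1 went from -0.16 to -0.21, and the oligodendrocyte ratio of Ciart went from -1.32 to -0.98. Per2, Per3 and Nr1d2 share the range from 20 to 50 kb, where the median was between -0.05 and 0.03 in the 4 classes, so their ratios changed little. In this set the activators Arntl and Clock and the inhibitor Cry1 are over 50 kb long, and Ciart, Dbp and Nr1d1 are under 10 kb.

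**Figure D5:**
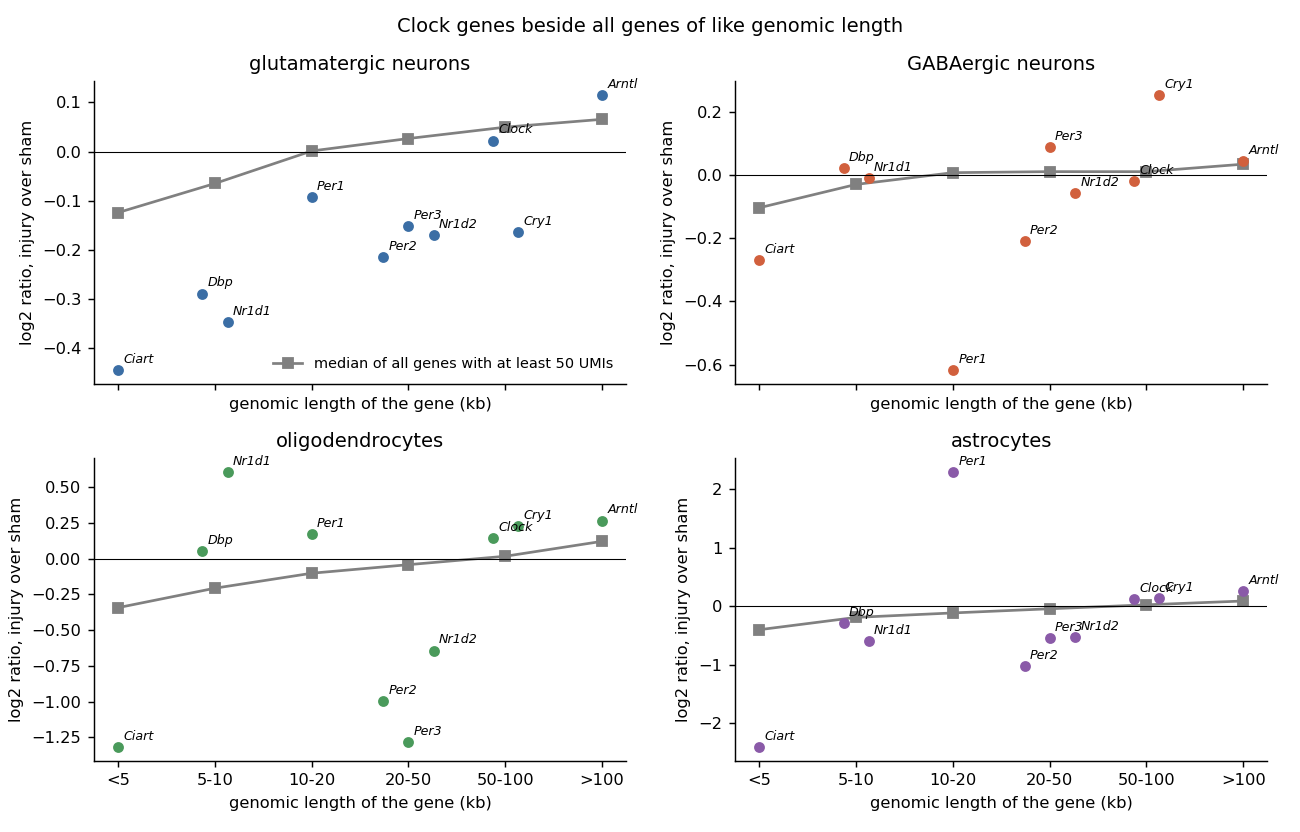
Log2 ratio of injury over sham of each clock gene (coloured points, spread within a column for legibility) and the median of all genes with at least 50 UMIs (grey squares) by genomic length in kb, in 4 cell classes with separate vertical scales. The grey medians are lowest under 5 kb and highest over 100 kb in each class, at -0.12 and 0.07 in glutamatergic neurons, with little change between 10 and 100 kb in GABAergic neurons. In glutamatergic neurons every clock gene except Arntl lies below the grey median of its length.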

How the data were processed

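Nuclei were sorted, and droplet-based 3′ libraries were counted by the authors with Cell Ranger 6.0.2 against GRCm38. The deposited values are raw UMI counts per gene and barcode, with no normalization. Annotation release, use of intronic reads and use of strand are not given in the sources used here. No barcode in either table had under 500 UMIs. Symbols and coordinates (32158 of 32285 rows) came from GENCODE on GRCm38.

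Nuclei with a mitochondrial share over 2%, under 200 or over 7500 genes were left out, following the study's filter. Doublets called by Scrublet (scanpy 1.11.5), 2179 in sham and 3871 in injury at an assumed 0.8% per 1000 nuclei, were kept, except that clusters with over 50% of them were set aside. Anchor integration (Seurat 5.3.0, R 4.3.3) used 1993 genes, which left out the clock and listed genes, and was followed by clustering with 30 components at a resolution of 0.5 into 31 clusters. Thresholds for setting clusters aside were chosen after seeing the data. Clusters of few UMIs (1.71% of sham and 2.37% of injury nuclei), of mixed markers (1.20% and 0.895%), of doublets (4.90% and 6.28%) or with under 50 nuclei in a library (0.0183% and 4.31%) entered no class. The last kind were neuron clusters found almost only in the injury library. Their leading genes included Neurod6 (0 sham and 281 injury nuclei), Neurod2 (0 and 220) and Ano2 (3 and 437). Whether the tissue dissected differed was not tested.

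UMIs were summed by class and library, scaled to CPM, and compared as log2 ratios with exact Clopper-Pearson intervals and no pseudocount. With 1 library per group no test was made. The named genes are all 10 members, the genes of the lists, and the 5 highest-ranked genes in each direction among those with the same sign in 4 classes, of which some are not reported here. The members and lists were chosen with earlier results of these data known. Alternatives covered scaling (TMM, edgeR 4.0.16), doublets, integration, resolution, cluster mix, thinning to 3000 UMIs, free RNA, filters and fold.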

Additional observations from a re-analysis of the deposited data

Results flagged for a closer look

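Per1 drew attention because its ratio went in opposite directions in different cell classes. The log2 ratio of injury over sham was 2.30 (0.66 to 4.62) in astrocytes, against -0.093 (-0.18 to -0.01) in glutamatergic neurons and -0.62 (-0.91 to -0.32) in GABAergic neurons, with 95% counting intervals that do not overlap between astrocytes and either neuron class. With 1 library per group the difference between classes was not tested, and the sham astrocyte value rests on 3 UMIs.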

How the results depend on the processing

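No paired analysis was possible because sham and injury had 1 library each, and no replicate could be left out. Over the alternatives, 59 of 60 values of the median over output genes and 65 of 68 counts of members past 0.5 stayed within a limit, as did 403 of 418 values of single genes. The limit was the 95% counting interval of the main value (for a median, that of the gene at the median), or 1.5 times for a count. Wide intervals make this limit loose, and 22 of the 418 values changed sign, 9 of them under thinning. The glutamatergic median ranged from -0.28 to -0.14. At a fold of 0.3 on the log2 scale, 2 glutamatergic members were past it (Ciart and Nr1d1) in place of 0, by construction. With at least 50 UMIs required, 2 oligodendrocyte members were past 0.5 in place of 5. Thinning nuclei to 3000 UMIs left 66 sham and 221 injury oligodendrocytes and 35 and 195 astrocytes. It gave 3 GABAergic members past 0.5 in place of 1, an astrocyte median of 0.046 in place of -0.55 with Per2 also at 0.046, and oligodendrocyte Nr1d2 at 0.48, all 3 of these changing sign. Changing sign too were astrocyte Nr1d1 (0.61 in place of -0.60) and Dbp (0.98 in place of -0.30), oligodendrocyte Dbp (-0.74 in place of 0.05) and GABAergic Nr1d1 (0.65 in place of -0.01) and Per3 (-0.02 in place of 0.09), beside GABAergic Arntl and Clock, which stayed close to 0. The loss of most glia is part of the construction of thinning, and another cause was not tested. It gave no value for astrocyte Per1 or oligodendrocyte Nr1d1, which had 0 UMIs in a library. Equal weight for each cluster put glutamatergic Ciart at -0.31 and could not be run in the glia, which had 1 cluster each. The ratios relative to gene length, and those without each neuron cluster, were added after seeing the data. Without cluster 0 the glutamatergic ratio of Per1 was -0.05, and without cluster 2 the GABAergic ratio of Per2 was 0.11 in place of -0.21 and that of Per3 -0.22 in place of 0.09. TMM scaling put 4 astrocyte members past 0.5 in place of 6. Depth limits the glia most: 4 oligodendrocyte and 2 astrocyte members had under 50 UMIs.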
